A study of Oryza sativa Indica Group with 2 samples.

Results

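The 8 loci described here encode rice MADS-box transcription factors of 3 related groups, the AP1/FUL-like OsMADS14, OsMADS15 and OsMADS18, the SVP-like OsMADS22, OsMADS47 and OsMADS55, and the SOC1-like OsMADS50 and OsMADS56. They were picked by locus number, 8 of the 55337 loci in the expression table, and the FPKM of all transcript models of a locus were added. FPKM is the number of fragments per kilobase of transcript, scaled to the fragments of the whole library, so levels can be set side by side between genes. The samples were young panicles of paddy-grown *Osam1* mutant plants and of wild-type plants of the same *indica* variety, Zhongxian 3037. The *Osam1* mutation arose under gamma irradiation and is a 2-nucleotide deletion in exon 2 of *OsAM1* that brings in an early stop codon. Both samples were spikelets with meiocytes in prophase I, pooled from several panicles of 40 to 60 mm, and each genotype had 1 library. No difference below therefore has a replicate check, a standard error or a p-value.

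MADS-box factors bind DNA as dimers and larger complexes, and the type studied here, MIKC, carries a MADS domain for DNA binding and a keratin-like domain for pairing with partners. In grasses the AP1/FUL-like genes are switched on at the shoot apex when florigen arrives from the leaf, and they give the inflorescence and spikelet meristems their identity. SOC1-like genes act around the same switch in flowering time. SVP-like genes of rice are known for dampening brassinosteroid responses and for a part in meristem identity.

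The 2 libraries are called the *Osam1*-labelled sample and the WT-labelled (wild-type) sample, after the labels of the submitters. The column heading of the *Osam1*-labelled sample is written with a capital AA and that of the WT-labelled sample with a small aa, although capitals usually stand for the wild-type allele. The locus held to be *OsAM1* from general knowledge, LOC_Os03g44760, had 3.76 FPKM in the *Osam1*-labelled sample and 15.1 FPKM in the WT-labelled sample. No source used here pairs the gene with that locus, and the mutation leaves a transcript that can still be counted, so the level is a weak check of the labels. The steps between low FPKM values showed that a fragment was worth 2.37 times as much in the *Osam1*-labelled sample as in the WT-labelled sample, which thus held 2.37 times as many counted fragments. The order of the read totals stated by the study is the opposite one. Directions it lists for some single genes are opposite too. How many of all its listed genes have the same or the opposite direction was not counted, so these genes are no check of the labels. Whether the columns were exchanged was not settled, every direction below rests on the labels, and an exchange would turn each of them round. In the *Osam1*-labelled sample 22088 loci were above 0, against 23756 loci in the WT-labelled sample. Both samples carried the transcripts of floral MADS genes. All 7 SEPALLATA- and AGL6-like loci lay between 52.6 and 246.9 FPKM in the *Osam1*-labelled sample and between 45.7 and 139.1 FPKM in the WT-labelled sample. The germ cell gene MEL1 had 22.1 FPKM in the *Osam1*-labelled sample and 19.6 FPKM in the WT-labelled sample, and the anther gene MIL1 had 7.96 and 4.48 FPKM. Of 4 leaf marker loci for the Rubisco small subunit, 3 were in the table, with summed levels of 266.9 FPKM in the *Osam1*-labelled sample and 148.4 FPKM in the WT-labelled sample. These loci were unlike, from 1.40-fold higher in the *Osam1*-labelled sample for LOC_Os12g17600 to 11.8-fold for LOC_Os12g19470. The part of leaf-like green tissue in the differences below was not tested. In bulk tissue such as this, fewer cells of a type and less RNA per cell cannot be told apart.

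Of the 8 loci, OsMADS18, OsMADS15 and OsMADS56 stood among the more abundant transcripts of the panicle in both libraries, and OsMADS47 was listed at 0 in both. OsMADS14 was the locus with the widest gap among those detected in both libraries, and it was lower in the *Osam1*-labelled sample. At a 2-fold threshold with 1 FPKM added to each value, OsMADS15 was higher and OsMADS14 and OsMADS55 were lower in the *Osam1*-labelled sample, and the other 5 loci stayed within 2-fold. The same threshold was passed by 41.9% of the 27498 loci that were above 0 in at least 1 library, 19.3% of them higher and 22.6% lower, so 3 of the 7 members above 0 is close to the background share.

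**Figure D1:**
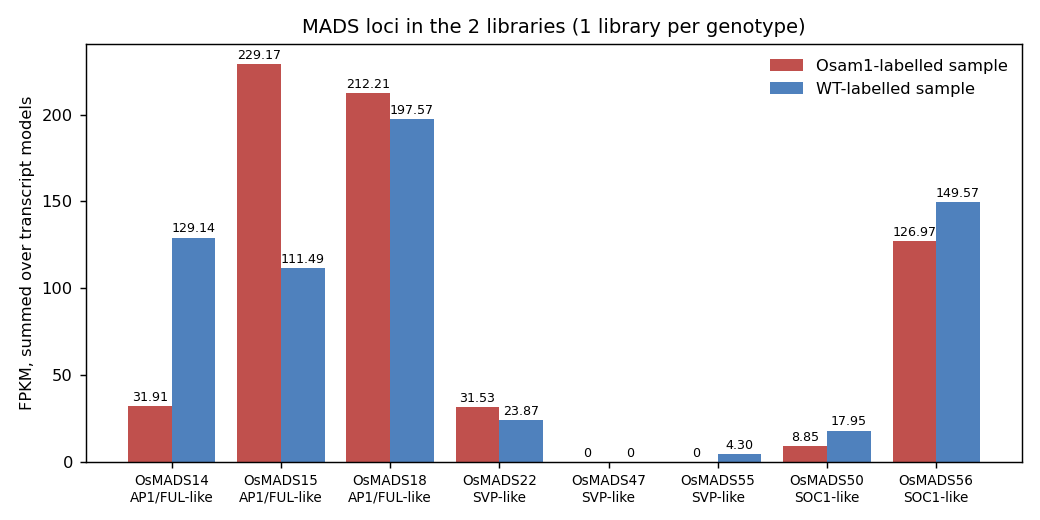
FPKM of the 8 MADS loci (vertical axis, summed over transcript models) in the *Osam1*-labelled sample (red) and the WT-labelled sample (blue), 1 library each, with no error bars because there are no replicates. OsMADS14 has 31.9 FPKM in the *Osam1*-labelled sample and 129.1 FPKM in the WT-labelled sample, OsMADS15 runs the other way, and OsMADS47 is listed at 0 in both.

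OsMADS14 (LOC_Os03g54160, chromosome 3) encodes the closest rice relative of the wheat vernalization gene VRN1 and is a known target of the florigen complex at the apex. It had 31.9 FPKM in the *Osam1*-labelled sample and 129.1 FPKM in the WT-labelled sample. The value was thus 4.05-fold higher in the WT-labelled sample, a log2 ratio of -1.98 for *Osam1* over wild type. Among the 5023 loci whose mean level lay from 30 to under 100 FPKM, 14.6% were at least 2-fold lower, and 6.23% had a ratio as low as that of OsMADS14 or lower. By level, OsMADS14 was in place 16 of the 32 MIKC loci examined in the *Osam1*-labelled sample and in place 5 in the WT-labelled sample. Its neighbour on the chromosome, the SEPALLATA-like OsMADS34 (LOC_Os03g54170), which acts with the AP1/FUL-like genes in inflorescence meristems, had 52.6 FPKM in the *Osam1*-labelled sample and 45.7 FPKM in the WT-labelled sample.

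OsMADS15 (LOC_Os07g01820, chromosome 7), the closest paralogue of OsMADS14 and a gene needed for normal growth of the palea, was the opposite case. It had 229.2 FPKM in the *Osam1*-labelled sample and 111.5 FPKM in the WT-labelled sample. The log2 ratio of 1.03 is just past 2-fold, and it became 0.96 after dividing by the median ratio of all loci and 0.97 after dividing by the 75th percentiles. Of the 1988 loci averaging 100 FPKM or more, 8.55% were at least 2-fold higher in the *Osam1*-labelled sample. The MIKC loci put OsMADS15 in place 3 in the *Osam1*-labelled sample and in place 8 in the WT-labelled sample.

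OsMADS18 (LOC_Os07g41370, also on chromosome 7), a broadly expressed gene of the same group that promotes flowering when overexpressed, was nearly level. The sum was 212.2 FPKM in the *Osam1*-labelled sample and 197.6 FPKM in the WT-labelled sample, a log2 ratio of 0.10. Added up, the 3 AP1/FUL-like loci gave 473.3 FPKM in the *Osam1*-labelled sample and 438.2 FPKM in the WT-labelled sample, a log2 ratio of 0.11. The group total was therefore close in both libraries while its make-up differed. OsMADS14 accounted for 6.74% of the total in the *Osam1*-labelled sample and 29.5% in the WT-labelled sample. OsMADS15 accounted for 48.4% in the *Osam1*-labelled sample and 25.4% in the WT-labelled sample. The share of OsMADS18 was 44.8% in the *Osam1*-labelled sample and 45.1% in the WT-labelled sample. The fourth rice gene of the group, OsMADS20 (LOC_Os12g31748), was listed at 0 in the *Osam1*-labelled sample and had 2.69 FPKM in the WT-labelled sample.

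Transcript models of the AP1/FUL-like loci did not share the ratio of their locus. OsMADS18 was the clearest instance, with model 1 at 143.1 FPKM in the *Osam1*-labelled sample and 31.3 FPKM in the WT-labelled sample. Its model 2 had 69.1 FPKM in the *Osam1*-labelled sample and 166.3 FPKM in the WT-labelled sample. Model 1 thus made up 67.4% of the locus in the *Osam1*-labelled sample and 15.8% in the WT-labelled sample, and the near-level sum hides log2 ratios of 2.16 and -1.26 for models 1 and 2. In OsMADS15, model 3 carried most of the signal, with 172.7 FPKM in the *Osam1*-labelled sample and 89.9 FPKM in the WT-labelled sample, a log2 ratio of 0.93. Model 2 had 44.4 FPKM in the *Osam1*-labelled sample and 16.4 FPKM in the WT-labelled sample. Model 5 of OsMADS15 was seen at 12.1 FPKM in the *Osam1*-labelled sample only and model 4 at 5.17 FPKM in the WT-labelled sample only, while models 1 and 6 were listed at 0 in both.

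Both models of OsMADS14 lay on the same side, so its direction did not depend on how models were combined. Model 2 had 31.9 FPKM in the *Osam1*-labelled sample and 112.7 FPKM in the WT-labelled sample, a log2 ratio of -1.79. Model 1 was listed at 0 in the *Osam1*-labelled sample and had 16.5 FPKM in the WT-labelled sample. Of the 17 transcript models of the 8 loci, 13 were above 0 in at least 1 library, and 9 of these passed 2-fold, 4 higher and 5 lower. The background share among the 33645 transcript models above 0 was 47.6%. Models past 2-fold in both directions were found at 2 of the 4 loci with several models and an average of 30 FPKM or more, OsMADS15 and OsMADS18, against 21.2% of the 2714 loci of that kind. A model listed at 0 in 1 library and at 1 FPKM or more in the other was found at 3 of the 4, against 38.0%. Models of a locus share exons, and reads across exon junctions were not matched by the authors. How the counting divided shared reads among models was not tested, and the differences between models are uncertain for that reason.

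**Figure D2:**
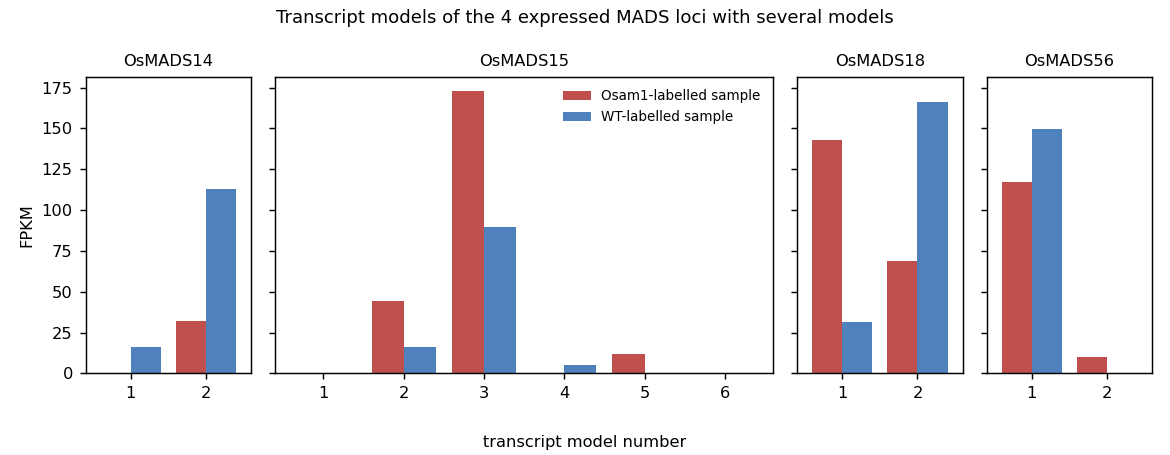
FPKM (vertical axis) of each transcript model (horizontal axis, model number) of OsMADS14, OsMADS15, OsMADS18 and OsMADS56 in the *Osam1*-labelled sample (red) and the WT-labelled sample (blue), 1 library each. The models of OsMADS18 run in opposite directions, with model 1 at 143.1 FPKM and model 2 at 69.1 FPKM in the *Osam1*-labelled sample, whereas both models of OsMADS14 are lower there.

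Among the SVP-like loci only OsMADS22 was well detected. OsMADS22 (LOC_Os02g52340, chromosome 2), which disturbs spikelet development when expressed in excess, had 31.5 FPKM in the *Osam1*-labelled sample and 23.9 FPKM in the WT-labelled sample, a log2 ratio of 0.39. It has 1 transcript model, and the smallest whole fragments that give its values are 19 in the *Osam1*-labelled sample and 34 in the WT-labelled sample. At those numbers the fold of *Osam1* over wild type was 1.32, with a 95% exact Clopper-Pearson interval of 0.713 to 2.39. The interval covers counting error alone, assumes fragments that were not shared between genes, and would be narrower at a higher number of fragments. At those lowest possible numbers the gap in OsMADS22 is within counting error.

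OsMADS55 (LOC_Os06g11330, chromosome 6), a repressor of brassinosteroid responses, was listed at 0 in the *Osam1*-labelled sample and at 4.30 FPKM in the WT-labelled sample. With 1 FPKM added, the log2 ratio was -2.41, a number set largely by the added value. Among 1223 loci with 1 transcript model and a value within 20% of 4.30 FPKM in the WT-labelled sample, 34.6% were likewise listed at 0 in the *Osam1*-labelled sample, the shallower one by the steps. OsMADS47 (LOC_Os03g08754, chromosome 3), another repressor of brassinosteroid responses, was listed at 0 for both of its transcript models in both libraries. A 0 in such a table can be an absence of reads or a failed estimate, and the 2 were not separated. The SVP-like sum was 31.5 FPKM in the *Osam1*-labelled sample and 28.2 FPKM in the WT-labelled sample, and OsMADS22 made up all of it in the *Osam1*-labelled sample and 84.7% in the WT-labelled sample.

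The SOC1-like pair differed in level more than in ratio. OsMADS56 (LOC_Os10g39130, chromosome 10), which delays flowering in long days when overexpressed, had 127.0 FPKM in the *Osam1*-labelled sample and 149.6 FPKM in the WT-labelled sample, a log2 ratio of -0.23. Nearly all of this came from model 1, at 117.1 FPKM in the *Osam1*-labelled sample and 149.6 FPKM in the WT-labelled sample. Model 2 had 9.85 FPKM in the *Osam1*-labelled sample and was listed at 0 in the WT-labelled sample.

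OsMADS50 (LOC_Os03g03070, chromosome 3), a flowering activator and the counterpart of Arabidopsis SOC1, was far less abundant than OsMADS56. It had 8.85 FPKM in the *Osam1*-labelled sample and 17.95 FPKM in the WT-labelled sample, a log2 ratio of -0.94 that passed 2-fold, at -1.01, with 0.1 FPKM added and after dividing by the median ratio. The values of its 1 transcript model need at least 5 fragments in the *Osam1*-labelled sample and 24 in the WT-labelled sample. At those lowest possible numbers the fold of *Osam1* over wild type was 0.493. The 95% exact interval from counting error alone was 0.147 to 1.32, which includes no difference. It would be narrower at a higher number of fragments, and whether it would then still include no difference was not tested. OsMADS50 made up 6.52% of the SOC1-like sum of 135.8 FPKM in the *Osam1*-labelled sample and 10.7% of the sum of 167.5 FPKM in the WT-labelled sample.

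In order of level, the *Osam1*-labelled sample ran OsMADS15, OsMADS18, OsMADS56, OsMADS14, OsMADS22 and OsMADS50, with OsMADS55 and OsMADS47 at 0. The WT-labelled sample ran OsMADS18, OsMADS56, OsMADS14, OsMADS15, OsMADS22, OsMADS50 and OsMADS55, with OsMADS47 at 0. With 1 library each, whether neighbours in either order differ cannot be judged against a spread. OsMADS18 lay above 96.6% of the loci above 0 in the *Osam1*-labelled sample and above 96.3% in the WT-labelled sample. The 8 loci together summed to 640.6 FPKM in the *Osam1*-labelled sample and 633.9 FPKM in the WT-labelled sample. All loci together summed to 1.38e+06 FPKM in the *Osam1*-labelled sample and 1.14e+06 FPKM in the WT-labelled sample. Close sums of the members are therefore not equal shares of the whole. Over the 7 loci above 0, the median log2 ratio was -0.23 and the median absolute log2 ratio 0.94, beside -0.01 and 0.81 over the 27498 loci above 0. Over the 6 that averaged 10 FPKM or more these medians were -0.07 and 0.67, beside 0.04 and 0.60 over the 12947 loci of that level.

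**Figure D3:**
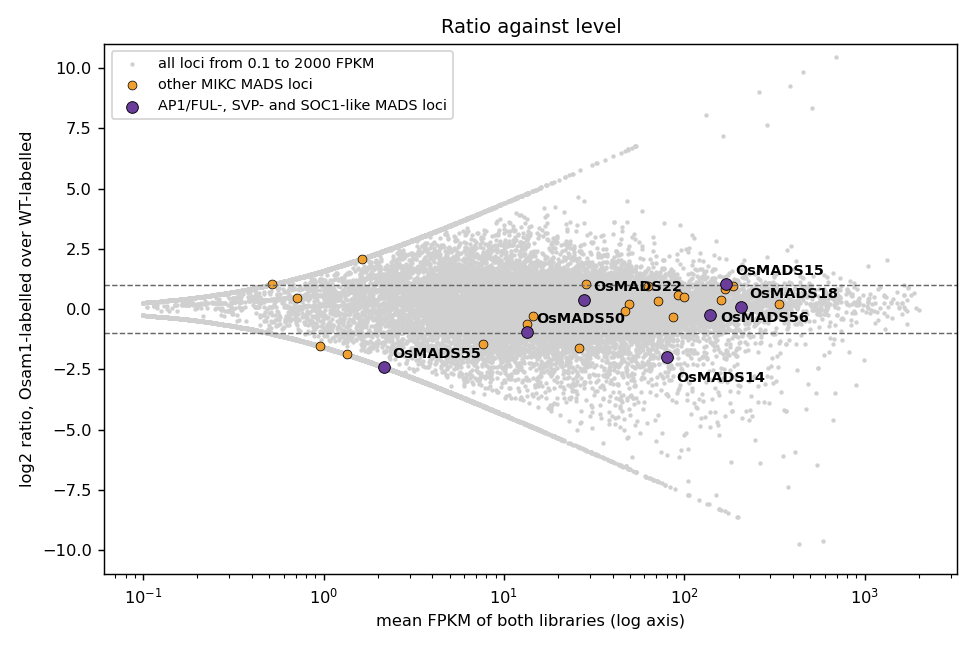
Log2 ratio of the *Osam1*-labelled sample over the WT-labelled sample (vertical axis, 1 FPKM added) against the mean FPKM of both (horizontal log axis). Grey points are the loci within the plotted range of levels, without the very lowest and highest. Other MIKC MADS loci are orange and the AP1/FUL-, SVP- and SOC1-like loci purple, where above 0. Dashed lines mark 2-fold. OsMADS14, at -1.98, lies below the lower line at a level where 14.6% of loci do so, and OsMADS55 lies on the edge formed by loci listed at 0 in the *Osam1*-labelled sample.

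Outside these groups, 24 other MIKC loci were examined for comparison, and in the *Osam1*-labelled sample 3 of them were higher by 2-fold or more and 4 were lower by as much. Of the 24, 21 were above 0, so 7 of 21 passed the threshold, beside 41.9% of the 27498 loci above 0. Among the 15 averaging 10 FPKM or more, 1 was higher and 1 lower past 2-fold. Of all 12947 loci of that level, 1702 were higher and 2136 lower by that much. Whether the list differs from this background was not tested. None of the 7 SEPALLATA- and AGL6-like loci passed 2-fold, and 6 of them had a ratio above 0. All 7 averaged 10 FPKM or more, and 6754 of the 12947 loci of that level had a ratio above 0. Whether these 7 differ from that background was not tested. OsMADS1 (LOC_Os03g11614), which specifies lemma, palea and floret meristem, was the highest by its mean, with 246.9 FPKM in the *Osam1*-labelled sample and 125.8 FPKM in the WT-labelled sample, a log2 ratio of 0.97. Of the 7 organ identity loci of the B, C and D classes, 1 was higher and 1 lower. The C-class OsMADS58 (LOC_Os05g11414) had 38.4 FPKM in the *Osam1*-labelled sample and 18.3 FPKM in the WT-labelled sample. The ovule gene OsMADS13 (LOC_Os12g10540) had 3.60 FPKM in the *Osam1*-labelled sample and 11.7 FPKM in the WT-labelled sample.

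The B-class OsMADS16 (LOC_Os06g49840), needed for lodicules and stamens, was the most abundant MIKC locus in both libraries, with 358.3 FPKM in the *Osam1*-labelled sample and 308.3 FPKM in the WT-labelled sample. OsMADS26 (LOC_Os08g02070), known from stress responses, had 12.3 FPKM in the *Osam1*-labelled sample and 39.8 FPKM in the WT-labelled sample. OsMADS25 (LOC_Os04g23910), known from root growth, had 3.27 FPKM in the *Osam1*-labelled sample and was listed at 0 in the WT-labelled sample. Over the 15 of the 24 loci averaging 10 FPKM or more, the median log2 ratio was 0.35, beside -0.07 for the AP1/FUL-, SVP- and SOC1-like loci. The difference between the lists was not tested.

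Flowering signals that act upstream of, or beside, the AP1/FUL-like and SOC1-like genes formed a second list for comparison. Of its 20 loci, 10 were listed at 0 in both libraries. Over all 55337 loci, 27498 were above 0 in at least 1 library, so that share is close to the background. The 10 loci included the florigen gene Hd3a (LOC_Os06g06320), which is expressed in leaf blades, and the day-length regulators Hd1 (LOC_Os06g16370) and DTH8 (LOC_Os08g07740). RFL (LOC_Os04g51000), the rice counterpart of LEAFY, was another. On the same list, 3 loci were higher in the *Osam1*-labelled sample by 2-fold or more and 1 was lower by as much, all below a mean of 10 FPKM. Ehd2 (LOC_Os10g28330), a zinc finger activator of flowering, had 3.42 FPKM in the *Osam1*-labelled sample and 0.60 FPKM in the WT-labelled sample. LOC_Os12g05590 had 9.0 FPKM and LOC_Os09g36910 had 5.21 FPKM in the *Osam1*-labelled sample, and both were listed at 0 in the WT-labelled sample. LOC_Os02g39710 had 4.29 FPKM in the *Osam1*-labelled sample and 13.9 FPKM in the WT-labelled sample. These 3 loci carry no name in the sources used here. The share past 2-fold was 66.1% among the 8890 loci averaging from 1 to under 10 FPKM. The highest locus of the list, LOC_Os01g08700, had 234.6 FPKM in the *Osam1*-labelled sample and 244.9 FPKM in the WT-labelled sample.

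**Figure D4:**
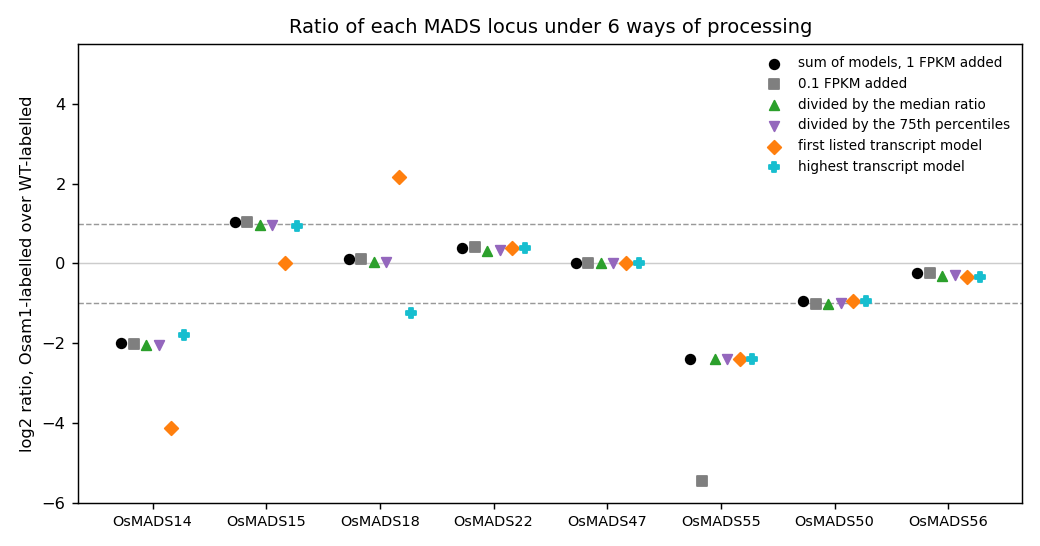
Log2 ratio of the *Osam1*-labelled sample over the WT-labelled sample (vertical axis) for each of the 8 MADS loci under 6 ways of processing, marked by symbol and colour, with dashed lines at 2-fold. OsMADS14 stays below the lower line under all of them, OsMADS15 and OsMADS50 move across a line, and OsMADS18 takes values of 0.10 for the sum of models, 2.16 for the first listed model and -1.26 for the highest model.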

How the data were processed

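Poly(A) RNA of 1 *Osam1* and 1 wild-type sample was sequenced by the authors in pairs of 100 bp reads after 18 PCR cycles. They aligned filtered reads to the rice genome of the Rice Genome Annotation Project with SOAPaligner/soap2, allowing 2 mismatches, and quantified expression with ERANGE. In the deposited table the unit is FPKM, given by the authors for each transcript model with 2 decimals (65535 rows, 6369 loci with several models). Whether these rows hold the whole annotation was not checked, and of the 4 listed Rubisco loci only 3 were among them. All shares refer to the rows present. The release of the annotation is not given in the sources used here. The table holds no read numbers, so depth was known only as a ratio.

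Transcript models were added per locus, and the ratio was log2((FPKM + 1) in *Osam1* / (FPKM + 1) in wild type), with 2-fold as the threshold and no test. The relative depth was read from the steps in the ratios of 4307 low loci with 1 transcript model, taking the likeliest of the tallest peak and its simple multiples. The smallest whole fragments are the lowest pair within 0.15% of the step beside rounding. On simulated data, the depth was read within 1% in 20 of 20 pairs of libraries. In a check of the code alone, 200 of 200 loci changed 4-fold were called and 0 of 6765 unchanged loci. The spread simulated there was so small that these counts were fixed by the setting. How reliable a 2-fold call is in these data was therefore not tested. The members and lists were chosen with earlier results of these data known. The named genes were all members and their models, OsMADS20, OsMADS34, listed loci past 2-fold with a mean of at least 1 FPKM and the highest locus of each role. Names of the members came with their locus numbers, and the other names were paired with loci by hand. They were checked against RefSeq synonyms (ASM3414082v1), which held 39 of the 52 names on the chromosome of the locus, all 8 members among them. Their order on the chromosomes was that of the locus numbers in 28 of 28 neighbouring pairs. RefSeq does not list the locus numbers themselves. No sequences were used. With 2 libraries, no genes were ranked by likeness to the members. Python 3.11.15, numpy 2.4.6, pandas 2.3.3, scipy 1.17.1 and matplotlib 3.10.9 were used. The alternatives were 0.1 or 0.01 in place of the added 1 FPKM, scaling by the median ratio or by the 75th percentiles, the first listed or the highest transcript model, exchanged labels and a mean of at least 1 FPKM.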

Additional observations from a re-analysis of the deposited data

How the results depend on the processing

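The number of loci among the 8 at least 2-fold higher in the *Osam1*-labelled sample was 1, and it became 0 after dividing by the median ratio, 0 after dividing by the 75th percentiles and 0 with the highest transcript model, because OsMADS15 then lay just below 2-fold. The first listed transcript model moved the log2 ratio of the AP1/FUL-like sum to 1.56, from 0.11 with all models added, since that model is listed at 0 for OsMADS15 and is the higher one of OsMADS18 in the *Osam1*-labelled sample. With the labels exchanged, 2 of the 8 loci were higher and 1 lower, the SOC1-like sum had a log2 ratio of 0.30, and OsMADS14, OsMADS15 and OsMADS55 had log2 ratios of 1.98, -1.03 and 2.41. Under the alternatives other than exchanged labels, the log2 ratio of OsMADS14 ran from -4.13 to -1.79 and that of OsMADS18 from -1.26 to 2.16. The counts for the other MIKC loci, the flowering list and all loci stayed within 1.5 times, as did 59 of the 66 alternative values for counts and group sums. The number of the 8 loci at least 2-fold lower rose from 2 to 3 with 0.1 or 0.01 FPKM added, through OsMADS50. It was also 3 after dividing by the median ratio, again through OsMADS50, and with the highest transcript model, through OsMADS18. These values are counted among the 59. The 59 also include counts in either direction under exchanged labels, which cannot change. They also include group sums whose log2 ratio changed sign while moving by less than 1.5-fold. Among these was the AP1/FUL-like sum, at a log2 ratio of -0.43 with the highest transcript model. No paired analysis was possible because each genotype has 1 library. Depth limits OsMADS50, OsMADS55 and OsMADS22, whose values may rest on few fragments, and leaving out a replicate was not possible.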
